A study of Mus musculus with 20 samples.

Results

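The interleukin, colony factor and TNF genes of differentiated 3T3-L1 adipocytes were followed across overexpression and knockdown of Foxk1 and of Foxk2. They were chosen by name: protein-coding genes whose mouse symbol begins with Il and a digit, together with Csf1, Csf1r, Csf2, Csf3, Lif, Lifr, Osmr, Tnf, Tnfrsf1a and Tnfrsf1b. This rule gave 92 of the 48440 genes in the expression table, of which 43 encode ligands, 43 receptor subunits, 5 inhibitors or decoys and 1 an enzyme that carries an interleukin name. Of the 92, 27 reached a mean of 0.5 RPKM (reads per kilobase of gene, scaled to the reads assigned in the library) over all 20 libraries.

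Interleukins and colony factors are secreted proteins, most of which act on paired receptor chains. One chain usually recognises a single ligand, and a shared chain, such as gp130 (Il6st) for the interleukin-6 family or Il1rap for the interleukin-1 family, carries the signal into the cell. Class I and II cytokine receptors signal through JAK kinases and STAT factors, while the receptors for interleukin-1, interleukin-17 and TNF recruit adaptors that lead to NF-kB. In fat tissue these cytokines are known for acting on insulin signalling, lipolysis and the recruitment of macrophages, and many of them are made by immune cells rather than by the adipocytes.

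3T3-L1 is a mouse cell line of preadipocytes that can be turned into fat cells in culture, labelled here as Swiss mouse and as adipocytes. Foxk1 and Foxk2 are paralogous forkhead transcription factors, and the study asked how the transcriptome differs when their levels are changed. The 8 groups were Foxk1 overexpression and its empty vector control, Foxk1 knockdown and its scrambled shRNA control (3 libraries in each), Foxk2 overexpression and its empty vector control, and Foxk2 knockdown and its scrambled shRNA control (2 libraries in each). All groups had received the same differentiation mix (dexamethasone at 1 µM, isobutylmethylxanthine at 0.5 mM, troglitazone at 10 µM, insulin at 5 µg/ml). Insulin was the only addition after day 4, and plain growth medium followed from day 6. The promoters of the constructs and the number of clones are not given in the sources used here, and the labels do not say whether replicates came from different cultures. P-values here therefore rest on the scatter among libraries, some of which may be technical.

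Assigned reads ran from 16739763 to 20772823 per library in the Foxk1 groups and from 31378224 to 36157008 in the Foxk2 groups. Foxk1 mRNA averaged 6.10 ± 0.0553 RPKM in the libraries labelled Foxk1 overexpression and 7.55 ± 0.468 RPKM in their controls (SD, n = 3 each), a log2 fold change of -0.28 ± 0.055 (SE). It was thus lower under that label, so every direction given for those libraries is that of the label. In Foxk1 knockdown it averaged 3.25 ± 0.265 RPKM against 8.32 ± 0.424 RPKM in controls (SD, n = 3 each). Foxk2 averaged 19.96 ± 0.0356 RPKM in Foxk2 overexpression against 13.4 ± 0.123 RPKM in its controls, and 3.27 ± 0.0271 RPKM in Foxk2 knockdown against 12.9 ± 0.282 RPKM in its controls (SD, n = 2 each). Both of those labels matched the mRNA. Each factor's mRNA also changed when the other was manipulated. Foxk2 had a log2 fold change of 0.29 ± 0.040 in labelled Foxk1 overexpression (adjusted p = 2.68e-05) and -0.19 ± 0.040 in Foxk1 knockdown (adjusted p = 0.00156). Foxk1 had one of -0.66 ± 0.067 in Foxk2 overexpression (adjusted p = 8.96e-07) and 0.30 ± 0.067 in Foxk2 knockdown (adjusted p = 0.00271).

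Receptor genes, not cytokine genes, made up most of what these cells expressed from the families. Of 43 receptor genes 22 reached a mean of 0.5 RPKM, against 4 of 43 ligand genes. The TNF receptor gene Tnfrsf1a was highest with a mean of 92.0 RPKM over the 20 libraries, followed by Il17rc (65.4), Il6st (20.95), the ligand gene Csf1 (12.4), Il11ra1 (10.8) and Il1r1 (10.6). Between 1 and 10 RPKM lay Il10rb (8.04), Il3ra (6.07), Il6ra (5.47), Lifr (4.45), Tnfrsf1b (4.31), Il15ra (4.11), Osmr (3.48), Il1rap (2.74), Il17re (1.84), Il4ra (1.76), Il18 (1.72), Il1rl2 (1.55), Il17ra (1.11) and Il34 (1.04). Between 0.5 and 1 RPKM were Csf1r (0.931), Il4 (0.882), Il20rb (0.804), Il17rd (0.739), Il13ra1 (0.732), Il18bp (0.700) and Il2ra (0.661). The proinflammatory ligands were close to the detection limit: Il6 had a mean of 0.113 RPKM from 122 reads in all libraries together, Il1a 0.109, Lif 0.0340, Tnf 0.0164 from 12 reads, and Il1b 0.0163 from 15 reads. The common gamma chain Il2rg, which the interleukin-2 and interleukin-15 receptors share, had a mean of 0.0284 RPKM. At these depths 14 of the 92 genes, 10 of them ligands, had no read in any library.

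Fold changes were tested for 37 of the 92 genes, those with 0.5 RPKM or more in at least 2 libraries; the other 55 fell below that filter, 41 of them with at least 1 read. A gene was called changed where limma's moderated test gave a Benjamini-Hochberg adjusted p under 0.05 over all 15981 genes that passed the filter. Among the 37, Il2rb, Il31ra and Il33 passed the filter through 1 group alone, in which they were high, so they had to differ there. Il1rl1 reached 0.5 RPKM in 4 libraries, of Foxk1 knockdown and its control, and would not have passed without the knockdown, in which it was high. Counts over the 37 therefore describe the tested genes and support nothing beyond that. Fold changes are on the scale of log2(RPKM + 0.5), which understates those of genes under about 1 RPKM.

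Of the genes that passed, more were lower than higher in each overexpression and more were higher than lower in each knockdown. In the libraries labelled Foxk1 overexpression 4 were higher and 19 lower than in controls, where 24.1% of all genes tested were higher and 23.8% lower (47.8% in either direction). In Foxk2 overexpression 4 were higher and 15 lower (23% and 22% of all genes tested, 45% in either direction). Foxk1 knockdown had 20 higher and 3 lower (20.4% and 15.5% of all genes tested, 35.9% together), and Foxk2 knockdown 18 higher and 2 lower (18% and 15.7%, 33.7% together). On the scale with 0.5 RPKM added, called changes of at least 2-fold were those of Il13ra1, Il18, Il4ra, Il11ra1 and Il20rb in labelled Foxk1 overexpression (3.62% of all genes tested), Il2ra in Foxk1 knockdown (1.65%), Il20rb and Il13ra1 in Foxk2 overexpression (3.91%) and Csf1 in Foxk2 knockdown (2.37%). The median log2 fold change of the 37 was -0.25 in labelled Foxk1 overexpression, -0.16 in Foxk2 overexpression, 0.32 in Foxk1 knockdown and 0.24 in Foxk2 knockdown, while that of all genes tested lay between 0 and 0.017. The 4 genes higher in labelled Foxk1 overexpression were Il13ra1, Csf1r, Il17rc and Osmr, a count of 2 without that group's replicate 3. Those higher in Foxk2 overexpression were Il13ra1, Il15ra, Lifr and Il1rap, a count of 2 without its replicate 2. Lower in Foxk1 knockdown were Il17rc, Il17re and Il27, and lower in Foxk2 knockdown Il17rc and Il15ra, of which Il17rc alone was called when any 1 of the 4 libraries was left out.

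**Figure D1:**
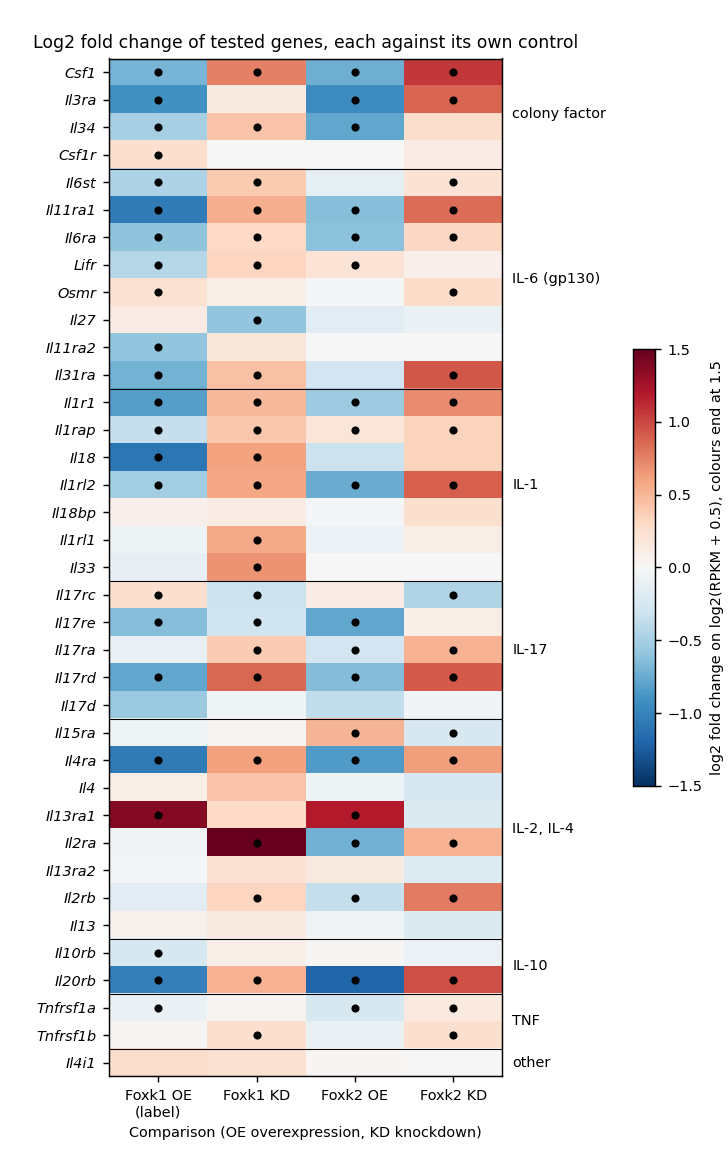
Log2 fold change of the 37 tested genes (rows, grouped by family) in the 4 comparisons (columns), each manipulation against its own control; dots mark adjusted p under 0.05. Blue, for lower, dominates the overexpression columns and red, for higher, the knockdown columns, with Il13ra1 and Il17rc among the exceptions.

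The ranges of the libraries were also compared. In labelled Foxk1 overexpression 21 of the 37 genes lay below every control library and 4 above, and in Foxk1 knockdown 22 lay above and 3 below; ranges were apart for 52.3% and 44.2% of all genes tested. With only 2 libraries a group, Foxk2 overexpression had 21 below and 7 above and Foxk2 knockdown 24 above and 6 below, where 70.3% and 67.2% of all genes tested had ranges apart.

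Of the 37 tested genes, 8 (21.6%) were lower in both overexpressions and higher in both knockdowns, a pattern called for 6.98% of all genes tested: Csf1, Il11ra1, Il17rd, Il1r1, Il1rl2, Il20rb, Il4ra and Il6ra. The reverse pattern was called for none of the 37 and for 4.52% of all genes tested. Beyond these 8, Il17re, Il34, Il3ra and Tnfrsf1a were lower in both overexpressions (12 of 37 in all, against 14% of all genes tested), and Il17ra, Il1rap, Il2ra, Il2rb, Il31ra, Il6st and Tnfrsf1b were higher in both knockdowns (15 of 37, against 11.2%). Of these, Il2rb and Il31ra entered the test through Foxk2 knockdown alone and so had to be high there. Only Il13ra1 was called higher in both overexpressions (13.5% of all genes tested) and only Il17rc lower in both knockdowns (8.03%). Taken factor by factor, 14 of the 37 were lower in labelled Foxk1 overexpression and higher in Foxk1 knockdown (12.5% of all genes tested), and 13, Il2rb among them, were so for Foxk2 (11.6%). Il17rc alone was higher in labelled Foxk1 overexpression and lower in Foxk1 knockdown (8.82%), and Il15ra alone in the same way for Foxk2 (10.4%). The 4 comparisons share no control libraries. By sign alone, the fold changes in labelled Foxk1 overexpression and Foxk1 knockdown were opposite for 27 of the 37 genes (65.6% of all genes tested), a count that rests on the label, and those in Foxk2 overexpression and Foxk2 knockdown for 30 of 37 (68.4%).

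**Figure D2:**
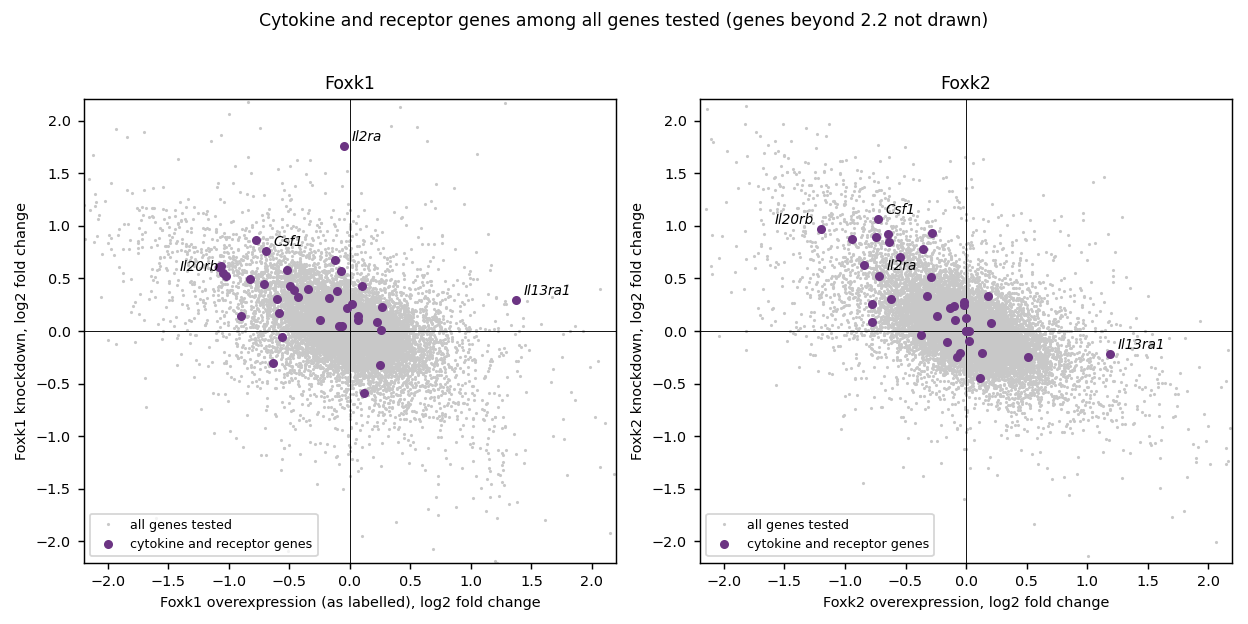
Log2 fold change in knockdown (vertical axis) against that in overexpression (horizontal axis) for Foxk1, left, and Foxk2, right; purple points are the 37 cytokine and receptor genes, grey points all genes tested, and genes beyond 2.2 are not drawn. Purple points lie mostly in the upper left, lower on overexpression and higher on knockdown, with Il13ra1 far to the right in both panels and Il2ra at the top of the Foxk1 panel.

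Markers of fat cell precursors moved with these genes, and the summed RPKM of adipocyte markers was lower in all 4 comparisons. The adipocyte label held: Adipoq lay between 647 and 3152 RPKM. The 10 adipocyte markers (Adipoq, Fabp4, Plin1, Pparg, Cebpa, Lpl, Cidec, Cfd, Slc2a4 and Lep) summed to 8813 to 8844 RPKM in labelled Foxk1 overexpression against 13406 to 13733, to 10571 to 11149 in Foxk1 knockdown against 12460 to 13057, to 7379 to 7389 in Foxk2 overexpression against 11776 to 11917, and to 10910 to 11216 in Foxk2 knockdown against 12880 to 12972. The sum was lower in every manipulation. In the order just given, 6, 7, 7 and 4 of the 10 were called lower, and 2, 0, 2 and 0 higher. Of all genes tested, 23.8%, 15.5%, 22% and 15.7% were lower, and 24.1%, 20.4%, 23% and 18% higher. The fibroblast and preadipocyte list (Pdgfra, Pdgfrb, Dlk1, Thy1, Cd34, Dcn, Ly6a, Dpp4, Col1a1 and Postn) summed to 173 to 181 RPKM in labelled Foxk1 overexpression against 461 to 570 in controls, and to 154 to 163 in Foxk2 overexpression against 346 to 350. In Foxk1 knockdown it summed to 1570 to 1644 RPKM against 737 to 820, and in Foxk2 knockdown to 694 to 709 against 213 to 215. Of its 8 tested genes 7 were lower in each overexpression (23.8% of all genes tested for Foxk1, 22% for Foxk2). All 8 were higher in each knockdown (20.4% and 18%). Cd34 and Dpp4 stayed at or below 0.197 and 0.00875 RPKM. The part of this shift in the cytokine and receptor results was not tested, and in bulk RNA fewer cells of a type and less RNA per cell cannot be told apart.

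Leukocyte markers were nearly absent. Ptprc, which all leukocytes carry, reached at most 0.00273 RPKM, and the macrophage genes Adgre1 and Itgam at most 0.0181 and 0.0100 RPKM. Of 10 macrophage symbols 9 were in the table, Emr1 being an older name of Adgre1. Only Cd14 and Cd68 exceeded 1 RPKM; the list summed to 3.02 to 3.69 RPKM in labelled Foxk1 overexpression against 5.00 to 5.46, to 5.66 to 6.76 in Foxk1 knockdown against 3.26 to 4.00, to 4.76 to 5.22 in Foxk2 overexpression against 6.05 to 6.80, and to 6.72 to 8.02 in Foxk2 knockdown against 3.76 to 4.03. Cd14 was lower in both overexpressions and higher in both knockdowns, and its part in the results was not tested. T cell, B cell and endothelial markers stayed at or below 0.362 RPKM each. Of the mast cell genes, Kit was at 0 in every library, Mcpt4 stayed at or below 0.0510 RPKM and Cpa3 lay between 0.231 and 2.28 RPKM; the list was at 0.297 to 0.517 RPKM in labelled Foxk1 overexpression against 1.18 to 1.97 RPKM.

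The sequence just before the gene start was read for genes of each pattern. The windows are the 250 bases before the RefSeq transcript start on GRCm38.p6, printed 5′ to 3′ on the gene's strand. Shown are Csf1 and Il4ra, which were lower in both overexpressions and higher in both knockdowns, Il13ra1, higher in both overexpressions, and Il33, chosen because the window shown holds a forkhead core. Capitals mark the GC box GGGCGG or its reverse complement, the forkhead core TGTTTAC and the TATA box TATAAA.
Csf1 promoter, chr3:107760470-107760719, minus strand: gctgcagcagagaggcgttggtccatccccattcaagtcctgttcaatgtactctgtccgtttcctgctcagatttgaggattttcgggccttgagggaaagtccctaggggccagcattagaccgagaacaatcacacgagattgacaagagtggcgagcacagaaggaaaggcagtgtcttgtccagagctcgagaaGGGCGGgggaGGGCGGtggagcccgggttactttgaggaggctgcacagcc
Il4ra promoter, chr7:125552021-125552270, plus strand: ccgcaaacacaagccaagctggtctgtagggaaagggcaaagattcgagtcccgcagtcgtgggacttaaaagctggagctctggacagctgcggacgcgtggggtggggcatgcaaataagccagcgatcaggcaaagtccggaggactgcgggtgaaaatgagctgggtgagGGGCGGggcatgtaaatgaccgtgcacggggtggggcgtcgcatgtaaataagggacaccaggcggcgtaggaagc
Il13ra1 promoter, chrX:36111858-36112107, plus strand: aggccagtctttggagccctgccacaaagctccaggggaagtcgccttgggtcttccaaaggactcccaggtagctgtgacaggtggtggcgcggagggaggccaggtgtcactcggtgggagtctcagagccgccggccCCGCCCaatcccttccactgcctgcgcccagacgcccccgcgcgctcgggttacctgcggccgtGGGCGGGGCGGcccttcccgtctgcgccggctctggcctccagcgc
Il33 promoter, chr19:29924863-29925112, plus strand: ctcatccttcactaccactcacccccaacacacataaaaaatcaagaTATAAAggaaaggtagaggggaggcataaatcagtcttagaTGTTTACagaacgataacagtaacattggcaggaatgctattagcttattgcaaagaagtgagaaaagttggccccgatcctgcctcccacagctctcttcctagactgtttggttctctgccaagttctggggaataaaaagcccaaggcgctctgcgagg
RefSeq windows were found for 31 of the 37 tested genes (38 windows). On either strand, the forkhead core was present in 3.17% of 32851 mouse windows and in 2 of the 38, from Il33 and Il1rl1. Each of these genes also had a window without it. The STAT letters TTCNNNGAA occurred in 7.02% of all windows and in those of Il31ra, Tnfrsf1a and Tnfrsf1b, and the AP-1 letters TGANTCA in 6.75% and in those of Il13ra2 and Il15ra. None of these 3 was in the 10 windows of the 8 genes with the common pattern. A GC box was in 32.7% of all windows and in 6 of those 10, those of Csf1, Il11ra1, Il17rd, Il1r1, Il20rb and Il4ra, and a TATA box in 12.4% of all windows and 1 of the 10, that of Il1rl2. GC content was 56.4% in the Csf1 window, 59.6% in that of Il4ra, 70.8% in that of Il13ra1 and 45.2% in that of Il33, against a median of 52.4%. These are matches of letters and no binding was measured.

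Csf1 (ENSMUSG00000014599.10, chromosome 3, 107741048 to 107760469, mm10), the colony factor that sustains macrophages, was the most abundant ligand gene by mean RPKM. It had 8.24, 7.76 and 8.57 RPKM in labelled Foxk1 overexpression against 14.4, 12.2 and 14.2 RPKM in controls (log2 fold change -0.69 ± 0.064 SE). Foxk2 overexpression gave 7.29 and 7.08 RPKM against 12.2 and 12.3 RPKM (-0.73 ± 0.079). No library of either overexpression reached its controls. Foxk1 knockdown gave 19.9, 18.4 and 20.7 RPKM against 11.4, 12.4 and 10.5 RPKM (0.76 ± 0.064), and Foxk2 knockdown 17.2 and 17.3 RPKM against 8.22 and 7.78 RPKM (1.06 ± 0.079). All 4 adjusted p-values were 1.79e-06 or less, and every knockdown library lay above its controls.

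Il34 (ENSMUSG00000031750.15, chromosome 8, 110741829 to 110805924) encodes the other ligand of the Csf1 receptor. Its level was 0.984, 1.099 and 0.507 RPKM in labelled Foxk1 overexpression against 1.42, 1.36 and 1.39 RPKM in controls (-0.50 ± 0.14, adjusted p = 0.00691; -0.29 with adjusted p = 0.0268 without replicate 3 of the labelled group). Fitted without the other groups it was not called (adjusted p = 0.0584). In Foxk2 overexpression it was 0.371 and 0.423 RPKM against 0.960 and 1.11 RPKM (-0.78 ± 0.17, adjusted p = 0.00126). Both overexpressions thus held Il34 below every control library. Foxk1 knockdown had 1.62, 1.95 and 1.40 RPKM against 1.15, 0.968 and 1.18 RPKM (0.43 ± 0.14, adjusted p = 0.0228), a call lost without replicate 2 of the knockdown or of its control (adjusted p 0.0854 to 0.104). Foxk2 knockdown had 0.830 and 0.798 RPKM against 0.628 and 0.568 RPKM and did not pass (0.26 ± 0.17, adjusted p = 0.272). These levels rest on 19 to 70 reads per library.

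Csf1r, the receptor of both ligands, differed more between the Foxk1 and Foxk2 sets of libraries than within them. It lay between 1.22 and 1.87 RPKM in all 12 libraries of the Foxk1 groups and between 0.0191 and 0.0889 RPKM in all 8 of the Foxk2 groups, controls included. Within the sets only labelled Foxk1 overexpression passed, at 1.79 ± 0.0806 RPKM against 1.43 ± 0.179 RPKM (SD, n = 3 each; 0.25 ± 0.080, adjusted p = 0.0157). That call was lost without replicate 3 of the labelled group or replicate 1 of its control (0.17 to 0.23, adjusted p 0.0574 to 0.0915). Exons of Hmgxb3 on the opposite strand cover 15.1% of those of Csf1r, and whether reads were counted by strand is not given in the sources used here.

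Il3ra (ENSMUSG00000068758.7, chromosome 14, 14346275 to 14356011), the specific chain of the interleukin-3 receptor, was lower in both overexpressions. It had 1.65, 2.15 and 2.25 RPKM in labelled Foxk1 overexpression against 4.40, 4.26 and 3.90 RPKM (-0.90 ± 0.12, adjusted p = 1.3e-05), and 3.30 and 3.15 RPKM in Foxk2 overexpression against 5.95 and 7.46 RPKM (-0.94 ± 0.15, adjusted p = 6.53e-05). The groups did not overlap. Foxk2 knockdown had 9.58 and 9.08 RPKM against 5.63 and 4.18 RPKM (0.87 ± 0.15, adjusted p = 0.00022). In Foxk1 knockdown the ranges overlapped, with 10.4, 9.77 and 8.52 RPKM against 9.81, 8.06 and 8.01 RPKM (0.14 ± 0.12, adjusted p = 0.398). The 2 knockdown effects differed by -0.73 ± 0.19, Foxk1 minus Foxk2 (adjusted p = 0.0162), but not without replicate 1 of Foxk2 knockdown or replicate 2 of its control (adjusted p 0.0672 to 0.109).

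**Figure D3:**
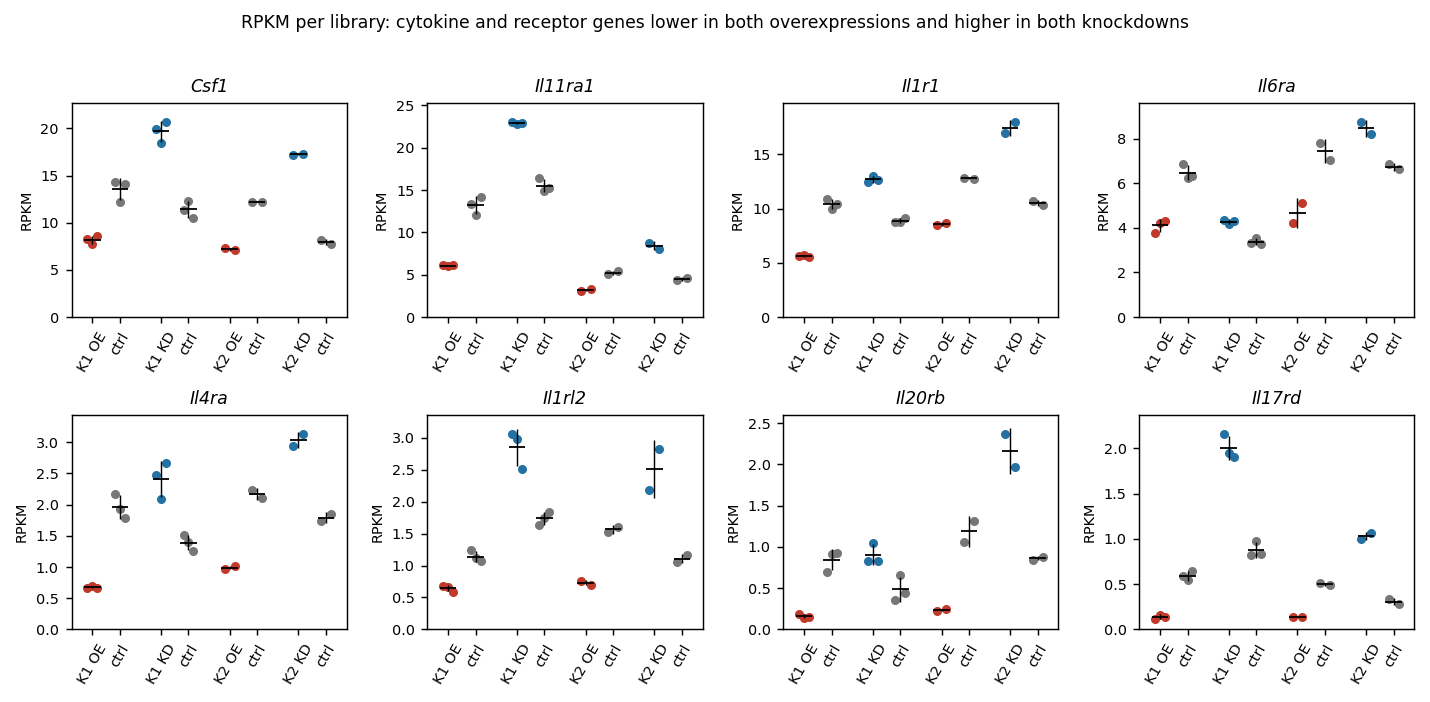
RPKM in each library for the 8 genes lower in both overexpressions and higher in both knockdowns; K1 and K2 stand for Foxk1 and Foxk2, OE for overexpression (K1 OE as labelled), KD for knockdown and ctrl for the control of the group to its left. Horizontal bars are means and vertical bars SD; red points lie below and blue points above their grey controls throughout.

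In the interleukin-6 family, which signals through gp130, 8 genes were tested. Labelled Foxk1 overexpression had 1 higher and 6 lower (24.1% and 23.8% of all genes tested), Foxk1 knockdown 5 higher and 1 lower (20.4% and 15.5%), Foxk2 overexpression 1 higher and 2 lower (23% and 22%, about the same share) and Foxk2 knockdown 5 higher and none lower (18% and 15.7%). Those higher in Foxk2 knockdown include Il31ra, which entered the test through that group alone and so had to be high there. Il6ra (ENSMUSG00000027947.11, chromosome 3, 89864059 to 89913196), the interleukin-6 binding chain, had 3.78, 4.23 and 4.31 RPKM in labelled Foxk1 overexpression against 6.85, 6.22 and 6.34 RPKM (-0.60 ± 0.066, adjusted p = 1.97e-06). Foxk2 overexpression had 4.20 and 5.13 RPKM against 7.81 and 7.04 RPKM (-0.62 ± 0.081, adjusted p = 1.22e-05). The knockdown differences were smaller, though the groups were again apart. They were 4.35, 4.17 and 4.33 RPKM against 3.34, 3.54 and 3.26 RPKM for Foxk1 (0.30 ± 0.066, adjusted p = 0.00208), and 8.74 and 8.18 RPKM against 6.86 and 6.62 RPKM for Foxk2 (0.31 ± 0.081, adjusted p = 0.00764). The last call was lost without replicate 1 of Foxk2 knockdown or replicate 2 of its control (0.26 to 0.28, adjusted p 0.0594 to 0.0708).

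Il11ra1 (ENSMUSG00000073889.10, chromosome 4, 41699989 to 41769474), the interleukin-11 binding chain, changed by more. It had 6.12, 6.06 and 6.11 RPKM in labelled Foxk1 overexpression against 13.4, 12.1 and 14.2 RPKM (-1.05 ± 0.054, adjusted p = 3.32e-10), and 3.08 and 3.31 RPKM in Foxk2 overexpression against 5.07 and 5.41 RPKM (-0.64 ± 0.066, adjusted p = 1.14e-06). Foxk1 knockdown had 23.0, 22.8 and 22.9 RPKM against 16.4, 14.9 and 15.2 RPKM (0.55 ± 0.054, adjusted p = 1.04e-06), and Foxk2 knockdown 8.80 and 8.08 RPKM against 4.33 and 4.64 RPKM (0.84 ± 0.066, adjusted p = 1.12e-07). No groups overlapped. The effects of the 2 overexpressions differed by -0.42 ± 0.085 (adjusted p = 0.00222). Its values are uncertain, because Gm13305 matches one of its transcripts over 99.8% of the length at 99% identity or more. The same holds for Il11ra2, covered in full by Gm13305 and Il11ra1, which had no read in the Foxk2 groups and 0.228 ± 0.129 RPKM in labelled Foxk1 overexpression against 0.615 ± 0.336 RPKM (SD, n = 3 each; -0.59 ± 0.20, adjusted p = 0.0216). That call was lost without replicate 2 or 3 of the labelled group or replicate 3 of its control (-0.56 to -0.36, adjusted p 0.0600 to 0.126).

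The shared chain Il6st averaged 16.9 ± 0.658 RPKM in labelled Foxk1 overexpression against 23.5 ± 1.01 RPKM (SD, n = 3 each; -0.46 ± 0.044, adjusted p = 3.99e-07) and 26.8 ± 1.12 RPKM in Foxk1 knockdown against 20.3 ± 0.336 RPKM (0.39 ± 0.044, adjusted p = 4.59e-06). It was 18.7 ± 0.133 RPKM in Foxk2 overexpression against 20.6 ± 1.36 RPKM (SD, n = 2 each; -0.13 ± 0.054, adjusted p = 0.0550), which did not pass, and 21.04 ± 1.11 RPKM in Foxk2 knockdown against 18.02 ± 0.00435 RPKM (0.22 ± 0.054, adjusted p = 0.00553). Without replicate 2 of Foxk2 knockdown that call was lost (0.16, adjusted p = 0.0786). Lifr, the chain for leukaemia inhibitory factor, went opposite ways in the overexpressions. It was lower in labelled Foxk1 overexpression (2.52 ± 0.0697 RPKM against 3.58 ± 0.252 RPKM, SD, n = 3 each; -0.43 ± 0.052, adjusted p = 5.12e-06) and higher in Foxk2 overexpression (7.003 ± 0.625 RPKM against 6.01 ± 0.324 RPKM, SD, n = 2 each; 0.20 ± 0.064, adjusted p = 0.0158). The Foxk2 call was lost without replicate 2 of either Foxk2 group (0.12 to 0.15, adjusted p 0.144 to 0.225). The difference between the effects was -0.64 ± 0.082 (adjusted p = 5.8e-05). In Foxk1 knockdown Lifr rose by 0.33 ± 0.052 (adjusted p = 0.000144).

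Osmr, the oncostatin M chain, varied little, from 2.93 to 4.57 RPKM over all libraries. It was called higher in labelled Foxk1 overexpression (0.23 ± 0.071, adjusted p = 0.0158) and Foxk2 knockdown (0.28 ± 0.087, adjusted p = 0.022). The first call was lost without replicate 3 of either group (0.19 to 0.21, adjusted p 0.0512 to 0.0679). The second was lost without either control library or replicate 2 of the knockdown (0.17 to 0.29, adjusted p 0.0729 to 0.246). Il31ra, which pairs with Osmr for interleukin-31, stayed at or below 0.687 RPKM; it fell by 0.71 ± 0.11 on the log2 scale in labelled Foxk1 overexpression (adjusted p = 6.19e-05) and rose by 0.44 ± 0.11 in Foxk1 knockdown (adjusted p = 0.00471). In Foxk2 knockdown it had 0.600 and 0.687 RPKM against 0.104 and 0.0984 RPKM (0.93 ± 0.13), with no p given because it entered the test through that group alone. Il27, a ligand subunit whose receptor uses gp130, had 4 to 20 reads per library. It had 0.353 ± 0.151 RPKM in Foxk1 knockdown against 0.782 ± 0.186 RPKM (SD, n = 3 each; -0.59 ± 0.22, adjusted p = 0.0454). This was lost without replicate 1 or 3 of the knockdown or replicate 2 or 3 of its control (-0.60 to -0.48, adjusted p 0.0852 to 0.151). Exons of Apobr on the opposite strand cover 10.1% of those of Il27.

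Among interleukin-1 family genes 7 were tested. None was higher and 4 were lower in labelled Foxk1 overexpression (24.1% and 23.8% of all genes tested), and 6 were higher and none lower in Foxk1 knockdown (20.4% and 15.5%). The 6 include Il33, which entered the test through Foxk1 knockdown alone and so had to be high there. They also include Il1rl1, which would not have been tested without the Foxk1 knockdown libraries. Foxk2 overexpression had 1 higher and 2 lower (23% and 22%, about the same share), and Foxk2 knockdown 3 higher and none lower (18% and 15.7%). Il1r1 (ENSMUSG00000026072.12, chromosome 1, 40225080 to 40317257), the signalling receptor for interleukin-1, had 5.67, 5.70 and 5.54 RPKM in labelled Foxk1 overexpression against 10.9, 9.96 and 10.4 RPKM (-0.83 ± 0.036, adjusted p = 5.66e-11). Foxk2 overexpression had 8.47 and 8.70 RPKM against 12.8 and 12.8 RPKM (-0.55 ± 0.044, adjusted p = 6.67e-08). Foxk1 knockdown had 12.4, 13.0 and 12.7 RPKM against 8.77, 8.74 and 9.14 RPKM (0.49 ± 0.036, adjusted p = 4.56e-08), and Foxk2 knockdown 16.9 and 17.97 RPKM against 10.7 and 10.3 RPKM (0.70 ± 0.044, adjusted p = 1.12e-08). Replicates lay within a narrow band and no groups overlapped. The overexpression effects differed by -0.28 ± 0.056, Foxk1 minus Foxk2 (adjusted p = 0.00201).

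Next to it on chromosome 1 lies Il1rl2 (ENSMUSG00000070942.8, 40324610 to 40367562), the receptor for interleukin-36. It had 0.676, 0.669 and 0.591 RPKM in labelled Foxk1 overexpression against 1.24, 1.12 and 1.06 RPKM (-0.52 ± 0.083, adjusted p = 9.92e-05), and 0.760 and 0.702 RPKM in Foxk2 overexpression against 1.52 and 1.61 RPKM (-0.75 ± 0.10, adjusted p = 2.05e-05). Foxk1 knockdown gave 3.05, 2.98 and 2.52 RPKM against 1.63, 1.75 and 1.83 RPKM (0.58 ± 0.083, adjusted p = 5.44e-05), and Foxk2 knockdown 2.19 and 2.83 RPKM against 1.06 and 1.16 RPKM (0.90 ± 0.10, adjusted p = 6.08e-06). The groups were apart in all 4 comparisons. Il1rl1 (40429570 to 40465415), the interleukin-33 receptor, had 0.991 ± 0.274 RPKM in Foxk1 knockdown against 0.506 ± 0.184 RPKM (SD, n = 3 each), a log2 fold change of 0.57 ± 0.13. No p is given here, since Il1rl1 would not have been tested without the Foxk1 knockdown libraries. Its call there was lost when those 2 groups were fitted by themselves, and Il1rl1 was called in no other comparison. Its ligand gene Il33 had 0.532 ± 0.1001 RPKM in Foxk1 knockdown against 0.148 ± 0.0759 RPKM (SD, n = 3 each), a log2 fold change of 0.67 ± 0.11. No p is given for that value, since Il33 entered the test through the Foxk1 knockdown libraries alone. In the other 3 comparisons Il33 reached at most 0.0738 RPKM in any library.

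The shared chain Il1rap averaged 2.58 ± 0.0958 RPKM in labelled Foxk1 overexpression against 3.42 ± 0.0629 RPKM (SD, n = 3 each; -0.35 ± 0.043, adjusted p = 6.12e-06), but 2.39 ± 0.0626 RPKM in Foxk2 overexpression against 2.05 ± 0.0407 RPKM (SD, n = 2 each; 0.18 ± 0.052, adjusted p = 0.00962). The second call was lost without replicate 2 of Foxk2 overexpression or replicate 1 of its control (0.16 to 0.17, adjusted p 0.0615 to 0.0738). The difference between these effects was -0.53 ± 0.067 (adjusted p = 5.1e-05). Both knockdowns raised it, by 0.40 ± 0.043 for Foxk1 (adjusted p = 2.44e-06) and 0.33 ± 0.052 for Foxk2 (adjusted p = 0.000139). Il18 (ENSMUSG00000039217.12, chromosome 9, 50554827 to 50581840), a ligand released after cleavage by caspase 1, had 0.750, 0.280 and 0.952 RPKM in labelled Foxk1 overexpression against 2.09, 1.45 and 2.16 RPKM (-1.08 ± 0.18, adjusted p = 0.000162). Foxk1 knockdown had 4.24, 4.27 and 3.69 RPKM against 2.16, 3.02 and 2.39 RPKM (0.60 ± 0.18, adjusted p = 0.018), a call lost without replicate 1 or 2 of the knockdown or replicate 1 or 3 of its control (0.52 to 0.58, adjusted p 0.0521 to 0.0717). The Foxk2 groups did not pass, with 0.509 and 0.669 RPKM in overexpression against 0.852 and 0.873 RPKM (adjusted p = 0.274), and 1.07 and 1.34 RPKM in knockdown against 0.903 and 0.800 RPKM (adjusted p = 0.305). Its ranges were apart in every comparison, on 4 to 60 reads per library. Ranges were apart for 44.2% to 70.3% of all genes tested, depending on the comparison. The inhibitor gene Il18bp was called in none of the 4 comparisons and ran from 0.439 to 1.12 RPKM.

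The interleukin-17 receptor genes did not move together. Il17rc and Il17re are neighbours on the plus strand of chromosome 6 (113471427 to 113483140 and 113458484 to 113470758) and encode partners of the common chain Il17ra. Il17rc (ENSMUSG00000030281.16) averaged 62.9 ± 1.93 RPKM in labelled Foxk1 overexpression against 52.8 ± 2.71 RPKM (SD, n = 3 each; 0.25 ± 0.051, adjusted p = 0.000784) and 30.9 ± 0.726 RPKM in Foxk1 knockdown against 38.9 ± 1.54 RPKM (-0.33 ± 0.051, adjusted p = 0.000124). Foxk2 knockdown had 74.3 ± 7.60 RPKM against 101 ± 0.855 RPKM (SD, n = 2 each; -0.45 ± 0.063, adjusted p = 4.2e-05), and Foxk2 overexpression did not pass (0.11 ± 0.063, adjusted p = 0.170).

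Il17re (ENSMUSG00000043088.16), the receptor chain for interleukin-17C, had 1.095, 1.1005 and 1.28 RPKM in labelled Foxk1 overexpression against 1.93, 1.98 and 2.34 RPKM (-0.64 ± 0.077, adjusted p = 5.27e-06) and 1.92 and 1.91 RPKM in Foxk2 overexpression against 3.49 and 3.82 RPKM (-0.78 ± 0.094, adjusted p = 5.48e-06). In Foxk1 knockdown it was lower too, at 0.293, 0.214 and 0.289 RPKM against 0.410, 0.481 and 0.435 RPKM (-0.30 ± 0.077, adjusted p = 0.00601). Foxk2 knockdown had 3.83 and 3.29 RPKM against 3.27 and 3.35 RPKM, which overlapped (0.09 ± 0.094, adjusted p = 0.556). Il17re was therefore lower than its control in 3 of 4 comparisons, including both overexpressions, where its neighbour was not.

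Il17ra (ENSMUSG00000002897.5, chromosome 6, 120463247 to 120487559) had 1.59, 1.57 and 1.41 RPKM in Foxk1 knockdown against 1.01, 1.05 and 1.08 RPKM (0.38 ± 0.067, adjusted p = 0.000319) and 1.72 and 1.80 RPKM in Foxk2 knockdown against 1.02 and 1.138 RPKM (0.52 ± 0.082, adjusted p = 0.000149). Foxk2 overexpression had 0.808 and 0.993 RPKM against 1.21 and 1.20 RPKM (-0.29 ± 0.082, adjusted p = 0.00892), lost without its replicate 1 (-0.19, adjusted p = 0.125). Labelled Foxk1 overexpression had 0.680, 0.699 and 0.754 RPKM against 0.782, 0.886 and 0.757 RPKM and did not pass (-0.11 ± 0.067, adjusted p = 0.196). Il17rd (ENSMUSG00000040717.5, chromosome 14, 27038941 to 27107286), also known as Sef, a brake on fibroblast growth factor signalling, changed by more. It had 0.111, 0.164 and 0.140 RPKM in labelled Foxk1 overexpression against 0.590, 0.541 and 0.648 RPKM (-0.78 ± 0.074, adjusted p = 4.05e-07) and 0.140 and 0.136 RPKM in Foxk2 overexpression against 0.511 and 0.489 RPKM (-0.65 ± 0.091, adjusted p = 2.49e-05). Foxk1 knockdown gave 2.16, 1.95 and 1.91 RPKM against 0.820, 0.979 and 0.829 RPKM (0.86 ± 0.074, adjusted p = 2.52e-07), and Foxk2 knockdown 1.00 and 1.06 RPKM against 0.331 and 0.281 RPKM (0.92 ± 0.091, adjusted p = 1.25e-06). Every overexpression library of Il17rd was below, and every knockdown library above, its controls.

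Interleukin-4 and interleukin-13 share a receptor made of Il4ra and Il13ra1, and its 2 chains went opposite ways in the overexpressions. Il4ra (ENSMUSG00000030748.9, chromosome 7, 125552120 to 125579474) had 0.669, 0.692 and 0.662 RPKM in labelled Foxk1 overexpression against 2.18, 1.92 and 1.78 RPKM (-1.06 ± 0.077, adjusted p = 1.87e-08) and 0.969 and 1.01 RPKM in Foxk2 overexpression against 2.24 and 2.11 RPKM (-0.84 ± 0.095, adjusted p = 2.59e-06). Foxk1 knockdown had 2.47, 2.09 and 2.67 RPKM against 1.51, 1.40 and 1.26 RPKM (0.62 ± 0.077, adjusted p = 1.32e-05), and Foxk2 knockdown 2.95 and 3.13 RPKM against 1.73 and 1.85 RPKM (0.63 ± 0.095, adjusted p = 9.66e-05). The groups of Il4ra never overlapped. Exons of Gm44876 on the opposite strand cover 9.51% of those of Il4ra.

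Il13ra1 (ENSMUSG00000017057.9, chromosome X, 36112110 to 36171259) had 2.16, 1.38 and 2.11 RPKM in labelled Foxk1 overexpression against 0.330, 0.466 and 0.431 RPKM (1.38 ± 0.12, adjusted p = 1.94e-07), the largest rise of the 37 in that comparison on the scale with 0.5 RPKM added. Foxk2 overexpression had 1.21 and 1.42 RPKM against 0.268 and 0.319 RPKM (1.19 ± 0.15, adjusted p = 8.85e-06). The knockdowns did not pass. They had 0.626, 0.692 and 0.520 RPKM against 0.428, 0.345 and 0.445 RPKM for Foxk1 (0.29 ± 0.12, adjusted p = 0.0747) and 0.258 and 0.359 RPKM against 0.410 and 0.470 RPKM for Foxk2 (-0.22 ± 0.15, adjusted p = 0.307). Their ranges were apart in opposite directions, where 44.2% (Foxk1) and 67.2% (Foxk2) of all genes tested had ranges apart. The decoy receptor Il13ra2 and the ligand genes Il4 and Il13 were called in none of the 4 comparisons.

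**Figure D4:**
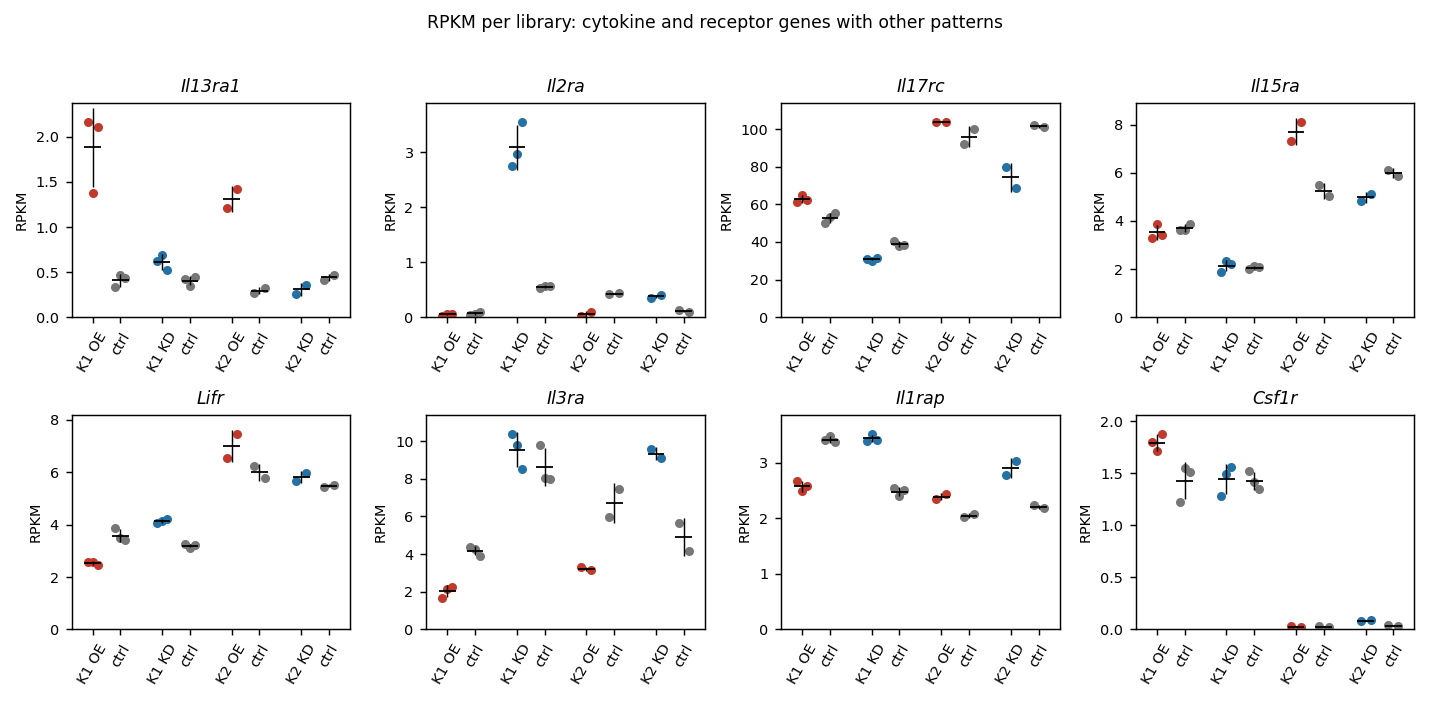
RPKM in each library for 8 genes with other patterns, laid out with the same groups, abbreviations, means and SD bars as the plot of the genes lowered by overexpression and raised by knockdown. Il13ra1 is high in both overexpressions, Il2ra in Foxk1 knockdown, and Csf1r is near 0 in all libraries of the Foxk2 groups.

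Il2ra (ENSMUSG00000026770.5, chromosome 2, 11642807 to 11693193), the high-affinity chain for interleukin-2, had the largest fold change of the 37 in any comparison on the scale with 0.5 RPKM added. Foxk1 knockdown had 2.75, 2.96 and 3.54 RPKM against 0.531, 0.566 and 0.570 RPKM (1.76 ± 0.090, adjusted p = 1.43e-09), and Foxk2 knockdown 0.352 and 0.401 RPKM against 0.123 and 0.0947 RPKM (0.52 ± 0.11, adjusted p = 0.00151). The knockdown effects differed by 1.23 ± 0.14 (adjusted p = 5.6e-05). Foxk2 overexpression had 0.0265 and 0.1004 RPKM against 0.421 and 0.431 RPKM (-0.72 ± 0.11, adjusted p = 5.95e-05). In labelled Foxk1 overexpression it was near the detection limit on both sides, at 0.0281, 0.0526 and 0.0641 RPKM against 0.0467, 0.0606 and 0.0933 RPKM (-0.05 ± 0.090, adjusted p = 0.708). The vector controls thus differed from each other, 0.0669 ± 0.0239 RPKM in the Foxk1 set and 0.426 ± 0.00679 RPKM in the Foxk2 set (SD, n = 3 and 2). The signalling partner Il2rb had 0.744 and 0.686 RPKM in Foxk2 knockdown against 0.168 and 0.248 RPKM (0.78 ± 0.13), with no p given because it entered the test through that group alone. It was called higher in Foxk1 knockdown (0.32 ± 0.11, adjusted p = 0.0273; adjusted p 0.0630 to 0.0819 without replicate 1 or 2 of the knockdown or 1 or 3 of its control) and lower in Foxk2 overexpression (-0.36 ± 0.13, adjusted p = 0.0335; 0.0855 to 0.181 without either control or replicate 1 of the overexpression).

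Il15ra (ENSMUSG00000023206.16, chromosome 2, 11705290 to 11734317), which lies beside Il2ra and presents interleukin-15, had 7.32 and 8.10 RPKM in Foxk2 overexpression against 5.49 and 5.02 RPKM (0.51 ± 0.083, adjusted p = 0.0001). Foxk2 knockdown had 4.82 and 5.13 RPKM against 6.13 and 5.85 RPKM (-0.24 ± 0.083, adjusted p = 0.032), lost when any 1 of these 4 libraries was left out (-0.28 to -0.21, adjusted p 0.0588 to 0.177). The Foxk1 groups overlapped, with 3.30, 3.86 and 3.41 RPKM in labelled overexpression against 3.61, 3.63 and 3.88 RPKM (-0.07 ± 0.068, adjusted p = 0.454), and 1.90, 2.34 and 2.197 RPKM in knockdown against 1.98, 2.11 and 2.07 RPKM (0.05 ± 0.068, adjusted p = 0.651). The ligand gene Il15 was not tested; it had 0.503 ± 0.114 RPKM in labelled Foxk1 overexpression (66 reads in 3 libraries) against 0.121 ± 0.0474 RPKM (15 reads), and 0.145 ± 0.0343 RPKM in Foxk2 overexpression against 0.0344 ± 0.0487 RPKM (SD, n = 3 and 2 a group).

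In the interleukin-10 family, Il20rb (ENSMUSG00000044244.18, chromosome 9, 100457719 to 100486788), a chain for interleukins 19, 20 and 24, fell in both overexpressions and rose in both knockdowns. It had 0.191, 0.143 and 0.149 RPKM in labelled Foxk1 overexpression against 0.697, 0.919 and 0.925 RPKM (-1.02 ± 0.11, adjusted p = 2.4e-06), and 0.223 and 0.242 RPKM in Foxk2 overexpression against 1.06 and 1.32 RPKM (-1.20 ± 0.14, adjusted p = 4.05e-06). Foxk1 knockdown had 0.828, 1.05 and 0.834 RPKM against 0.355, 0.658 and 0.441 RPKM (0.52 ± 0.11, adjusted p = 0.00217), and Foxk2 knockdown 2.36 and 1.97 RPKM against 0.843 and 0.879 RPKM (0.97 ± 0.14, adjusted p = 6.48e-05). No group overlapped its control. Its partner Il20ra and the ligand genes Il20 and Il24 were at 0 or near it, with 2 reads of Il20 in all and none of Il20ra or Il24. The shared chain Il10rb was lower in labelled Foxk1 overexpression, at 7.496 ± 0.135 RPKM against 8.99 ± 0.702 RPKM (SD, n = 3 each; -0.25 ± 0.052, adjusted p = 0.00108), and was called in no other comparison. Exons of Gm21970 on the same strand cover 14.9% of its own.

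The TNF receptor genes had small fold changes. Tnfrsf1a (ENSMUSG00000030341.17, chromosome 6, 125349362 to 125362484) averaged 83.1 ± 0.441 RPKM in Foxk2 overexpression against 98.3 ± 1.46 RPKM (SD, n = 2 each; -0.24 ± 0.037, adjusted p = 6.87e-05). In labelled Foxk1 overexpression it averaged 71.4 ± 1.66 RPKM against 76.2 ± 0.772 RPKM (SD, n = 3 each; -0.09 ± 0.030, adjusted p = 0.0186), lost without replicate 1 or 3 of the labelled group or replicate 3 of its control (-0.09 to -0.08, adjusted p 0.0571 to 0.0699). Foxk2 knockdown had 105 ± 1.02 RPKM against 95.3 ± 1.65 RPKM (SD, n = 2 each; 0.14 ± 0.037, adjusted p = 0.00776), lost without replicate 1 of either group (0.12 to 0.13, adjusted p 0.0526 to 0.0671). Tnfrsf1b rose by 0.25 ± 0.070 in Foxk1 knockdown (adjusted p = 0.00998; 0.16 without replicate 3 of the knockdown, adjusted p = 0.0445) and by 0.24 ± 0.086 in Foxk2 knockdown (adjusted p = 0.0456). Quantile normalization and a model of the comparison alone did not call the Foxk1 value (adjusted p 0.0671 and 0.103). The Foxk2 call was lost when any 1 of its 4 libraries was left out (0.21 to 0.26, adjusted p 0.0961 to 0.195). The ligand gene Tnf had 12 reads in all 20 libraries.

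Among untested genes, the interleukin-1 receptor antagonist Il1rn had a group mean of at least 0.5 RPKM in 1 group. It had 0.510 ± 0.0772 RPKM in Foxk2 knockdown (185 reads) against 0.206 ± 0.0607 RPKM (77 reads), and 0.107 ± 0.0197 RPKM in Foxk2 overexpression (38 reads) against 0.395 ± 0.0145 RPKM (149 reads; SD, n = 2 each). The ranges did not overlap, which also held for 67.2% and 70.3% of all genes tested in these comparisons. Il17d (0 to 1.49 RPKM) and Il4i1, whose exons overlap those of Tbc1d17 over 83.9% of their length, were tested and called in no comparison. Il4i1 lay between 0.289 and 0.781 RPKM in the Foxk1 groups and between 0.00781 and 0.0312 RPKM in the Foxk2 groups.

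The effects of Foxk1 and Foxk2 were set against each other, and the share of these genes that differed was near that of all genes tested. For the overexpressions 9 of the 37 differed, 2 with a higher and 7 with a lower effect under the Foxk1 label (25.1% of all genes tested, 11.6% higher and 13.5% lower). For the knockdowns 6 differed, 2 higher and 4 lower (14.3% of all genes tested, 6.68% higher and 7.63% lower), but 2 without replicate 2 of the Foxk2 knockdown control and 3 without replicate 1 of Foxk2 knockdown. Among the differences that passed, that of Il2ra was the largest in both on the scale with 0.5 RPKM added. It was 0.67 ± 0.14 for the overexpressions (adjusted p = 0.00282) and 1.23 ± 0.14 for the knockdowns. The overexpression controls of Il2ra averaged 0.0669 RPKM for Foxk1 and 0.426 RPKM for Foxk2, which left little room for a fall in the Foxk1 set. Its knockdown controls averaged 0.556 and 0.109 RPKM, so the added 0.5 RPKM understates the Foxk2 effect more. The sets of libraries also differ in depth and in replicate number, which cannot be told apart from the factor here.

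Genes downstream of these receptors were called in both directions in each comparison of the JAK-STAT list. Of its 24 tested genes, 7 were higher and 8 lower in labelled Foxk1 overexpression (24.1% and 23.8% of all genes tested) and 7 and 4 in Foxk1 knockdown (20.4% and 15.5%). In Foxk2 overexpression 6 were higher and 7 lower (23% and 22%), and in Foxk2 knockdown 9 and 5 (18% and 15.7%). Medians lay between -0.07 and 0.10. Socs3, which gp130 signalling induces and which then blocks it, fell by 0.92 ± 0.093 on the log2 scale in labelled Foxk1 overexpression (adjusted p = 7.59e-07) and by 1.38 ± 0.11 in Foxk2 overexpression (adjusted p = 9.68e-08). It rose by 0.87 ± 0.093 in Foxk1 knockdown (adjusted p = 2.9e-06) and 1.51 ± 0.11 in Foxk2 knockdown (adjusted p = 7.66e-08). Socs1, a second inhibitor of JAK kinases, was also lower in both overexpressions (-0.92 and -0.72) and higher in both knockdowns (0.57 and 0.96). Stat2 was lower in labelled Foxk1 overexpression (-0.33) and Foxk2 overexpression (-0.50) and higher in Foxk1 knockdown (0.47). The kinase gene Jak2 went the opposite way, higher in labelled Foxk1 overexpression (0.31 ± 0.034) and Foxk2 overexpression (0.44 ± 0.042) and lower in Foxk2 knockdown (-0.36 ± 0.042). Stat6, which interleukin-4 activates, was lower in labelled Foxk1 overexpression (-0.11 ± 0.043) and Foxk2 overexpression (-0.46 ± 0.052) and higher in Foxk2 knockdown (0.23 ± 0.052).

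Of 20 tested adaptors and kinases of interleukin-1 and TNF receptor signalling, 7 were higher and 7 lower in labelled Foxk1 overexpression (24.1% and 23.8% of all genes tested). In Foxk1 knockdown 4 were higher and 2 lower (20.4% and 15.5%). Foxk2 overexpression had 8 and 4 (23% and 22%) and Foxk2 knockdown 2 and 4 (18% and 15.7%). The interleukin-1 receptor-associated kinase gene Irak2 was higher in labelled Foxk1 overexpression (0.33 ± 0.039) and Foxk2 overexpression (0.17 ± 0.048). It was lower in Foxk1 knockdown (-0.21 ± 0.039) and Foxk2 knockdown (-0.36 ± 0.048). Birc2, an inhibitor of apoptosis in the TNF receptor complex, was lower in labelled Foxk1 overexpression (-0.33 ± 0.059) and Foxk2 overexpression (-0.37 ± 0.072) and higher in Foxk1 knockdown (0.23 ± 0.059). The adaptor gene Traf5 was lower in labelled Foxk1 overexpression (-0.26 ± 0.079) and Foxk2 overexpression (-0.45 ± 0.097) and higher in Foxk1 knockdown (0.34 ± 0.079). Of 6 tested genes of cytokine processing and shedding, none was called in Foxk1 knockdown (35.9% of all genes tested; limma, unadjusted p under 0.05 for 2). In Foxk2 knockdown 4 were higher (18% of all genes tested). Rhbdf2, which matures the TNF-cleaving protease Adam17, was among them (0.42 ± 0.092, adjusted p = 0.00198), and was lower in labelled Foxk1 overexpression (-0.19 ± 0.075, adjusted p = 0.0487) and Foxk2 overexpression (-0.39 ± 0.092, adjusted p = 0.00239).

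Of 13 tested related cytokine genes outside the naming rule, 1 was higher and 6 lower in each overexpression (24.1% and 23.8% of all genes tested under the Foxk1 label, 23% and 22% for Foxk2). In each knockdown 5 were higher and 2 lower (20.4% and 15.5% for Foxk1, 18% and 15.7% for Foxk2). Clcf1, a ligand that signals through gp130, was lower in Foxk2 overexpression (-1.16 ± 0.12) and higher in Foxk1 knockdown (0.30 ± 0.097) and Foxk2 knockdown (0.90 ± 0.12). Crlf2, a receptor chain for thymic stromal lymphopoietin, was lower in labelled Foxk1 overexpression (-0.45 ± 0.11) and Foxk2 overexpression (-0.60 ± 0.14) and higher in Foxk1 knockdown (0.32 ± 0.11) and Foxk2 knockdown (0.68 ± 0.14).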

How the data were processed

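RNA-seq was measured in 20 libraries of 3T3-L1 adipocytes, in 8 groups taken from the sample titles. The authors deposited RPKM values per gene; per the submitters' processing notes, reads were handled on mm10 with HISAT2 2.1.0, Picard 1.141, featureCounts of Subread 1.5.1 and edgeR. Whether counting used strand, and which annotation was used, is not given in the sources used here. Whole reads were recovered from the deposited RPKM with GENCODE M21 gene lengths, within 0.1 of a read. For 14 of the 92 genes the length came from the values themselves, so their reads are less sure.

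Fold changes were fitted with limma 3.58.1 (R 4.3.3) on log2(RPKM + 0.5) over all 20 libraries as 8 group means with a trended prior variance and 12 residual degrees of freedom. The 15981 genes that reached 0.5 RPKM in 2 or more libraries entered the test, with Benjamini-Hochberg adjustment over all of them and calls at an adjusted p under 0.05. Differences between Foxk1 and Foxk2 effects were contrasts in the same fit. The 4 comparisons, not these contrasts, were also tried on counts simulated with the same dispersion for every gene and group. The outcome is not given here and no result rests on it. Alternatives were the pseudocount, the filter, the scaling, the model, voom on recovered reads, a replicate block and each library left out.

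The genes and gene lists were chosen with earlier results of these data known. Every gene at a mean of 0.5 RPKM was named; libraries were listed for genes called with a log2 fold change of at least 0.5 and a mean of 1 RPKM in the higher group; up to 4 called genes per list and comparison, by size, could be named. Same-numbered samples did not deviate together (correlations -0.0858 to 0.0331), so numbers were not treated as pairs. Replicates differed by more than sampling noise (chi-square per degree of freedom 2.64 to 47.3), so all were kept. Promoter sequences came from RefSeq, GRCm38.p6, and near-identical transcripts were found with BLAST+ 2.17.0.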

Additional observations from a re-analysis of the deposited data

Results flagged for a closer look

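The effects of Foxk1 and Foxk2 were compared by a contrast of the contrasts in limma, with Benjamini-Hochberg adjustment over all genes tested, and 15 differences had an adjusted p under 0.05 (log2, Foxk1 minus Foxk2 effect, with SE and adjusted p). For the overexpressions, where the Foxk1 libraries are taken by their label, Lifr differed by -0.64 ± 0.082 (5.8e-05), Il15ra by -0.58 ± 0.11 (0.00106), Il1rap by -0.53 ± 0.067 (5.1e-05), Il11ra1 by -0.42 ± 0.085 (0.00222), Il6st by -0.33 ± 0.070 (0.00294), Il1r1 by -0.28 ± 0.056 (0.00201) and Il2ra by 0.67 ± 0.14 (0.00282). Each of these passed whichever library was left out. Il2ra was near the detection limit in the Foxk1 vector controls (0.0669 RPKM), which left little room for a fall there. Il10rb differed by -0.27 ± 0.082 (0.0277) and Tnfrsf1a by 0.15 ± 0.048 (0.0358). Both were lost when any 1 of 7 libraries was left out, with adjusted p of 0.0543 to 0.0893 for Il10rb and 0.0534 to 0.124 for Tnfrsf1a.

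For the knockdowns Il2ra differed by 1.23 ± 0.14 (5.6e-05) and passed whichever library was left out. Its controls averaged 0.556 RPKM for Foxk1 and 0.109 RPKM for Foxk2, so the added 0.5 RPKM understates the Foxk2 effect more. Il3ra differed by -0.73 ± 0.19 (0.0162) and Il1r1 by -0.21 ± 0.056 (0.0203). Without replicate 1 of Foxk2 knockdown or replicate 2 of its control, Il3ra had an adjusted p of 0.0672 to 0.109. Il33 differed by 0.67 ± 0.17, but it entered the test through the Foxk1 knockdown libraries alone, where it was high, so no p is given for it. Without replicate 2 of Foxk2 knockdown or of its control, Il1r1 had 0.101 to 0.102. Il17re differed by -0.39 ± 0.12 (0.0437), lost when any 1 of 7 libraries was left out (0.0522 to 0.218), and Il11ra1 by -0.29 ± 0.085 (0.0315), lost for any 1 of 5 (0.0508 to 0.159).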

How the results depend on the processing

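Of 85 calls over the 4 comparisons 64 held in every setting and 21 were lost in at least 1; no called value changed sign. The count higher in labelled Foxk1 overexpression, 4, was 7 with no filter, 2 at a mean of 1 RPKM or more, and 2 to 5 with a library left out. The count higher in Foxk1 knockdown, 20, was 13 at a mean of 1 RPKM or more, where fewer genes are tested. The count higher in Foxk2 overexpression, 4, was 2 in a model of that comparison alone and 2 to 4 with a library left out. The count lower in Foxk2 knockdown, 2, was 1 with no filter, 1 with the replicate block, and 1 with any of its libraries left out. Differing knockdown effects, 6, were 2 with the replicate block and 2 to 8 with a library left out; the block lost 7 calls and gained 1. The pattern of 8 genes covered 7 to 10 genes over all settings. Among all genes called in Foxk1 knockdown 56.9% were higher, against 48.8% after median ratio scaling and 47.9% after quantile normalization; in Foxk2 knockdown 53.5%, 48.9% and 45.3%. Among cytokine and receptor calls these shares were 87.0%, 87.0% and 85% for Foxk1 knockdown and 90%, 89.5% and 88.9% for Foxk2 knockdown. A filter at a mean of 20 reads, chosen after seeing the data, lost 0 calls and gained 3. Genes under about 1 RPKM rest on few reads.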
